A study of Rattus norvegicus with 8 samples.

Results

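Fibronectin is encoded by Fn1, listed in the count table as ENSRNOG00000014288, 1 of 32285 Ensembl rat gene identifiers. It was chosen by the smallest p of all tested genes between failing and control nodes, so its difference between the groups is described here and not tested again. Total RNA had been sequenced from the dissected sinoatrial node, where the heartbeat is initiated, in 8 libraries from Dahl/Salt Sensitive rats (SS/JrHsdMcwiCrl), an inbred strain that becomes hypertensive on a salt-rich diet. The 4 Control libraries came from rats on a diet with 0.4% NaCl and the 4 HFpEF libraries (heart failure with preserved ejection fraction) from rats on 8% NaCl, both kept for 11 weeks. All 8 libraries share the strain, and the labels name no other allele or agent and give no age. Salt intake, raised blood pressure and heart failure cannot be told apart in this design, and the labels do not say whether each library came from its own rat.

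Fibronectin is a large secreted glycoprotein that cells assemble into fibrils through integrin receptors, which recognise a short arginine-glycine-aspartate motif in the protein. These fibrils form an early scaffold on which collagens and other matrix proteins are laid down. In the heart, fibroblasts are a main source of the cellular form, transforming growth factor beta is a classical inducer of the gene, and fibronectin accumulates where the matrix is remodelled. The pacemaker cells of the node normally lie within a dense connective tissue matrix. Hepatocytes make a separate plasma form of the protein by alternative splicing of the same gene. RefSeq (GRCr8 assembly) lists 12 transcripts for rat Fn1, 1 curated and 11 predicted. The counts used here are summed per gene, so forms with and without the extra domains were not analysed here.

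Every HFpEF library held more Fn1 reads than every Control library. The expected counts, the read numbers that RSEM assigns to a gene, were 8901, 9716, 9648 and 8667 in Control replicates 1 to 4. In HFpEF replicates 1 to 4 they were 23512, 18567, 22518 and 26480. All 8 values were whole numbers, whereas a non-whole value shows that reads were shared out between genes. Fn1 took 0.0251% ± 0.00136 of the counts of a Control library and 0.0655% ± 0.00737 of those of an HFpEF library (SD, n = 4 each).

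After scaling of the libraries (TMM, which sets most genes level between libraries), Fn1 stood at 241, 261, 253 and 241 normalised CPM (counts scaled to a common library total) in Control replicates 1 to 4. In HFpEF replicates 1 to 4 it stood at 645, 587, 682 and 723 CPM. The Control libraries lay close together, while HFpEF replicate 4 was the highest and HFpEF replicate 2 the lowest of the failing nodes. The group means were 249 ± 9.71 and 659 ± 57.9 CPM (SD, n = 4 each), a 2.65-fold difference. Each of the 16 ratios of 1 HFpEF to 1 Control library lay between 2.25 and 3.003. In 6.74% of tested genes all 4 HFpEF libraries likewise lay above all 4 Control libraries. The node was sequenced as whole tissue, so more cells that make fibronectin and more Fn1 RNA per cell cannot be told apart.

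**Figure D1:**
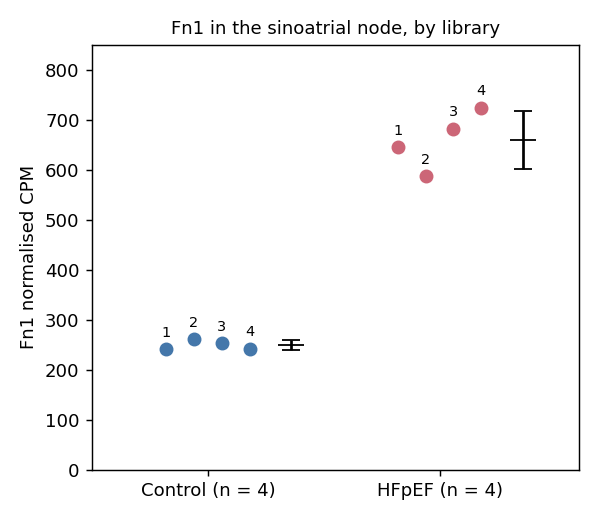
Fn1 in normalised CPM (vertical axis, from 0) in each library, with the replicate number above each point and the group mean ± SD (n = 4) as a bar at the right of each group. The Control libraries sit between 241 and 261 CPM and the HFpEF libraries between 587 and 723 CPM.

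The values that chose Fn1 were a log2 fold change of 1.40 (standard error 0.07) and a p of 1.48e-08 (edgeR's quasi-likelihood test, adjusted p = 0.000242 by Benjamini-Hochberg over 16313 tested genes). A gene with an adjusted p under 0.05 is said here to be called. Of the tested genes 1.94% were called, and 1.54% were called with a higher level in HFpEF. Just outside the choice lay ENSRNOG00000033192, the gene with the next smallest p (7.00e-07, edgeR adjusted p = 0.00396). That gene went from 13.4 ± 0.915 to 25.6 ± 2.04 CPM (SD, n = 4 each). With single libraries left out in turn, Fn1 was second by p without HFpEF replicate 1, seventh without HFpEF replicate 3, and first in the other 6 cases.

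Fn1 varied more between HFpEF than between Control libraries, a difference in spread that was not tested. With 8667 to 26480 reads per library, counting error was between 0.615% and 1.07% of the value. The coefficient of variation between libraries was 3.90% in Control and 8.79% in HFpEF (n = 4 each). This spread was close to that of genes with a like level in Control. In HFpEF those genes were less counted than Fn1 (highest mean 467 CPM, against 659 CPM for Fn1). Of the tested genes, 236 others had a Control mean between 0.8 and 1.2 times that of Fn1, and their median coefficients were 5.15% in Control and 9.997% in HFpEF. Of these 236 genes, 91 varied less than Fn1 in Control and 97 varied less in HFpEF. A small spread is part of what gives a small p, so this is a description and not independent of the choice of the gene.

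Fn1 stood much higher in the order of genes by read number in the failing node. Ordered by expected count, with no correction for transcript length, it ranked 376, 325, 361 and 377 in Control replicates 1 to 4. In HFpEF replicates 1 to 4 it ranked 100, 116, 97 and 84. The number of genes with any count ran from 20249 to 21385 over the libraries. The ranks of the groups did not overlap, and 185 genes held more reads than Fn1 in every Control library and fewer in every HFpEF library.

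**Figure D2:**
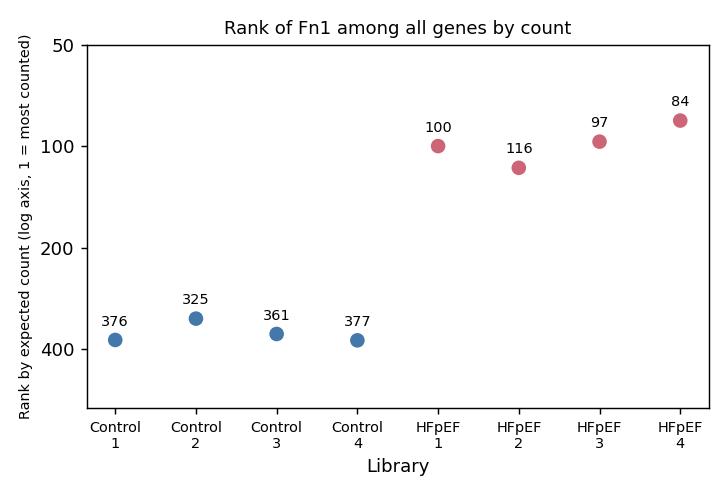
Rank of Fn1 by expected count among all genes of each library (log axis, rank 1 at the top is the most counted gene), with the rank printed above each point. Control libraries rank Fn1 between 325 and 377 and HFpEF libraries between 84 and 116.

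Fn1 combined a large fold with a high read number. Its level rose by 410 CPM, the most of the 251 genes called higher and 8.65% of their summed gain of 4741 CPM. Among all tested genes, 15 gained more CPM. Of those 15 genes edgeR called 0 (3 had an unadjusted p under 0.05), limma-voom 0 and DESeq2 1. By log2 fold change alone Fn1 ranked 269 among tested genes and 77 among the 251 genes called higher. The genes with larger changes were less counted: among the 1313 genes with a Control mean of at least 100 CPM, none had a larger fold than Fn1 with all 8 libraries in the fit. In that set the next gene had a 2.39-fold difference and was not called (edgeR adjusted p = 0.213), and the gene after it a 2.29-fold difference and was called (edgeR adjusted p = 0.0194). Without Control replicate 4, HFpEF replicate 1 or HFpEF replicate 4, Fn1 came second by fold in this set. Of these 1313 genes, 12 were called higher (0.914%). These ranks come from the contrast that chose the gene and are given as description.

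**Figure D3:**
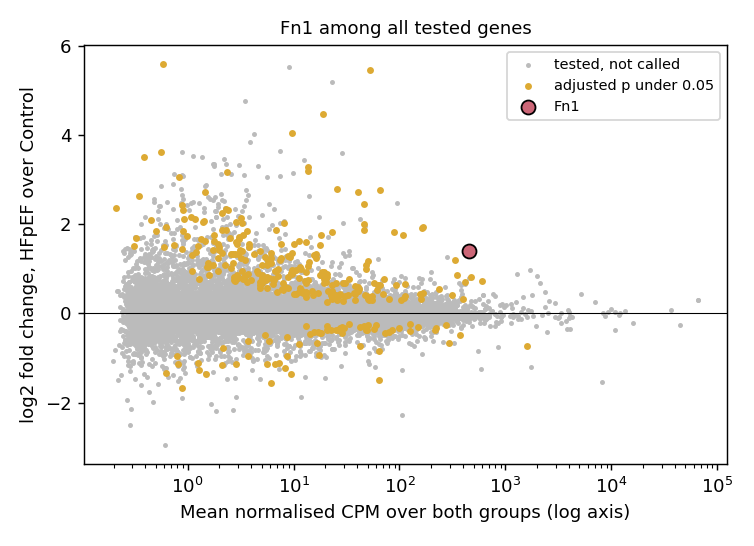
Each of the 16313 tested genes by mean normalised CPM over both groups (horizontal, log axis) and log2 fold change of HFpEF over Control (vertical); called genes are yellow, others grey, and Fn1 is the large red point. Fn1 lies at 1.40 on the vertical axis, above the other genes of its level.

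Most genes with the read number of Fn1 in Control nodes had a fold far below that of Fn1. Among the 236 genes of like Control level, at 199.6 to 298 CPM, the median fold was 0.971 and the range 0.533 to 2.29. Of them 3 were called higher (1.27%) and 2 lower. None reached the HFpEF mean of Fn1, and the highest of their HFpEF means was 467 CPM. Since Fn1 was chosen by its difference between the groups, its place above these genes is given as description.

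The genes whose pattern over the 8 libraries was most like that of Fn1 were less counted than Fn1, as were most tested genes. Of 16313 tested genes, 356 had a higher Control mean CPM than Fn1 and 96 a higher HFpEF mean CPM. Likeness was measured as Pearson's r of log2 CPM with Fn1 over 8 libraries, among 14305 other genes with a mean of at least 1 CPM. Because the libraries share the difference between the groups, r mainly follows that difference and is given with no test. The 5 most alike genes had r between 0.979 and 0.984, all 5 were called higher in HFpEF, and their HFpEF means ran from 1.90 to 32.1 CPM. The closest, ENSRNOG00000011683, stood at 10.04, 11.01, 9.41 and 10.2 CPM in Control replicates 1 to 4. In HFpEF replicates 1 to 4 it stood at 17.7, 16.8, 16.9 and 17.02 CPM, a log2 fold change of 0.75 ± 0.07 (SE, edgeR adjusted p = 0.00396). Its groups did not overlap. Its HFpEF libraries lay close together (SD 0.413 CPM) and counting error was not worked out for this gene. The order of its HFpEF libraries is therefore not compared with that of Fn1.

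Within the groups the correlation with Fn1 differed between these genes. Fn1 itself deviated from its group means by -0.163 to 0.139 in log2 CPM. The lowest Control means among the 5 genes were 0.436 and 0.737 CPM. The part of counting error in these correlations was not tested. The correlation of deviations from the group means was 0.19 for ENSRNOG00000011683 and ran from 0.16 to 0.88 over the 5 genes. Its median was 0.38 over the 44 genes with r of at least 0.95 and -0.0026 over all 14305 genes compared; choosing genes by r over the 8 libraries itself favours a positive value. For ENSRNOG00000033192 it was -0.52, while r over the 8 libraries was 0.96. A further 15 genes had r of -0.95 or lower. Of the 44 genes 41 were called, and of the 15 genes 8, against 292 of all 14305 genes compared. Since Fn1 separates the groups, choosing genes by r with it itself favours called genes, and nothing is read from these counts. The most opposite gene, ENSRNOG00000047115, had r = -0.98, with a Control mean of 8.03 ± 0.163 CPM and an HFpEF mean of 6.93 ± 0.182 CPM (SD, n = 4 each; edgeR adjusted p = 0.143). The count of 44 became 48, 70, 65 and 75 without Control replicates 1 to 4 in turn. It became 89, 87, 80 and 62 without HFpEF replicates 1 to 4 in turn. In these cases r was taken over fewer libraries, so the counts are not like for like with 44. On library totals alone the count was 30.

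The size of the Fn1 difference changed little with the processing. Over 18 alternatives, the log2 fold change ran from 1.36, without HFpEF replicate 4, to 1.46, without HFpEF replicate 2. HFpEF replicate 2 had the smallest library, 31774820 counts, and the lowest Fn1 level of its group; the part of library size in that level was not tested. The other 7 libraries held between 34840006 and 38889395 counts.

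**Figure D4:**
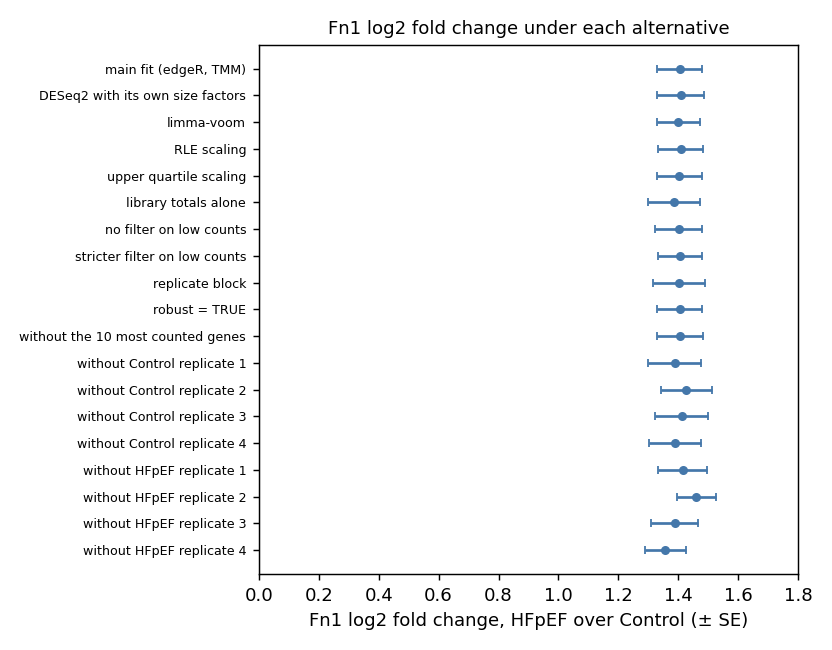
Log2 fold change of Fn1, HFpEF over Control (horizontal axis, from 0), with its standard error as bars, in the main fit and under each of 18 alternatives (vertical axis). All lie between 1.36 and 1.46.

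The count table lists identifiers without gene symbols, and 0 of them matched the reference tables used here. Integrin and syndecan receptors of fibronectin, its matrix partners, the proteases that cut it, its upstream signals and the markers of pacemaker cells, fibroblasts and other cell types were therefore not analysed here. The labelled tissue was not checked against its markers for the same reason.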

How the data were processed

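The authors deposited 1 table of RSEM expected counts per gene, not normalised; Bowtie2 2.1.0, RSEM 1.2.15 and the rn6 build are named per the submitters' processing notes. The annotation used, any filter on reads and whether strand was used in counting are also not given in the sources used here, so reads of genes that overlap Fn1 on either strand may be included. Each of the 8 columns matched 1 library's title. The identifier of Fn1 was given with the choice of the gene; the reference tables carry no Ensembl identifiers. The gene, the lists and the tests were chosen with earlier results of these data known. The rule for named genes allowed Fn1, and without symbols at most 2 rising and 2 falling identifiers; ENSRNOG00000047115 was chosen after its values were seen.

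Expected counts were rounded, filtered by filterByExpr (16313 genes, 99.95% of counts), scaled by TMM and compared with the quasi-likelihood test of edgeR 4.0.16 in R 4.3.3 (two-sided, Benjamini-Hochberg, threshold 0.05), without a replicate block. Standard errors were derived from the F statistic. Log2 CPM used a prior count of 2, and counts within 0.005 of a whole number were taken as whole. Totals ran from 31774820 to 38889395 counts; counting errors assume Poisson counts of independent reads. No pair of libraries within a group agreed within counting noise (chi-square divided by its degrees of freedom, 19.4 to 87.6). The spread behind each p-value is that between these libraries, moderated for each gene by the spread of the other genes, and may be technical. The fit was tested on simulated data. The alternatives comprised limma-voom (limma 3.58.1), DESeq2 1.42.0, RLE, upper quartile and no scaling, no filter and a stricter filter, a block for the replicate number, robust = TRUE, each library left out, and, added after seeing the data, leaving out the 10 most counted genes.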

Additional observations from a re-analysis of the deposited data

How the results depend on the processing

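Fn1 kept its direction and an adjusted p under 0.05 in all 18 alternatives, refits of the contrast that chose it and no new test. With 1 library left out its log2 fold change ran from 1.36 to 1.46 and its edgeR adjusted p from 0.000226 to 0.00454; under the other alternatives run with edgeR and limma-voom the adjusted p ran from 8.22e-05 to 0.0184. Fn1 had the smallest p in 15 of the 18. Without the 10 most counted genes totals are smaller, and its means were 348 CPM in Control and 923 CPM in HFpEF. Both groups use the numbers 1 to 4, and no label says that they pair the libraries. Between libraries of the same number, the correlation of deviations was -0.0221, -0.0564, 0.0683 and -0.162; the best match carried the same number for 2 of 8 libraries. With the replicate number as a block the log2 fold change of Fn1 was 1.40 (edgeR adjusted p = 0.0184, rank 3 by p), and edgeR called 6 genes, 6 higher and 0 lower, with 2568 at an unadjusted p under 0.05.

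The number of called genes, 316 (251 higher and 65 lower), was less stable. DESeq2 called 1248 (856 higher, 392 lower), limma-voom 37 lower genes, and edgeR on library totals alone 169 (140 higher, 29 lower); the cause was not tested. With 1 library left out, and so fewer libraries, edgeR called 22 to 332 genes, 21 to 234 higher and 0 to 98 lower; the 0 came without Control replicate 3, with 2522 genes at an unadjusted p under 0.05. The 15 genes with r of -0.95 or lower became 9 on library totals alone and 19 to 62 with 1 library left out, where r was taken over fewer libraries. Counts over gene lists were not run, because identifiers were not paired with symbols.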
